A study of Mus musculus with 6 samples.

Results

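The genes described here are the numbered Zfp genes of the mouse, a large set named after zinc finger proteins. Members were taken by symbol: Zfp followed by a number and nothing else, with Zfp42 left out, and at least 1 probe set annotated to that gene alone. Of 304 such genes, 273 had a mean log2 signal over the 6 arrays above log2 of 13.45 on their brightest probe set, and these 273 are the members, out of 12285 genes above about the same level (13.5, the 40th percentile of all probe sets). The members were thus chosen by symbol and by mean level over all arrays, and this rule does not use the change between days. The rule was set with earlier results of these data known, however, so the choice of members was not blind to those results. Just inside the level lay Zfp783 and Zfp709, with geometric mean signals of 13.8 and 13.6, and just outside it lay Zfp14 and Zfp536, with 13.1 and 11.7.

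The study profiled Venus-positive cells sorted from cultures of mouse E14 embryonic stem cells (129P2/OlaHsd background) that carry an Msgn1-Venus reporter, after 4 days (3 arrays) and after 3 days (3 arrays) of monolayer differentiation. All cultures of both days had the same medium, with 15% serum, 0.5% DMSO, 10 ng/mL R-spondin3 and 200 ng/mL Noggin, so by their labels the days differ in time alone. The samples are biological replicates of a single reporter line, and the gate is the Msgn1 reporter, which marks cells by activity of that gene. An unsorted or reporter-negative sample was not analysed here.

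Msgn1, a presomitic mesoderm gene and the source of the reporter, had signals of 25.2, 36.2 and 38.3 at day 4, against 83.0, 57.2 and 83.4 at day 3, and passed as lower. The 6 presomitic markers (Msgn1, Tbx6, Dll1, Dll3, Rspo3 and Hes7) were all above the level, with 1 higher (Rspo3) and 1 lower (Msgn1). Their summed signals were 4505 to 4812 at day 4, against 2902 to 3132 at day 3. The rise of this sum came mostly from Rspo3, with 2403 to 2882 at day 4, against 1248 to 1320 at day 3. Tbx6, Dll1, Dll3 and Hes7 did not pass. Of 6 cardiac and lateral mesoderm markers 3 were higher (Gata4, Hand2 and Isl1), with sums of 798 to 905 at day 4, against 399 to 435 at day 3. Endoderm markers summed to 284 to 317 at day 4, against 346 to 390.3 at day 3, with 2 of 6 lower. Neural markers summed to 71.7 to 109 at day 4, against 146 to 164 at day 3, with 1 of 2 tested lower. Endothelial and blood markers summed to 617 to 873 at day 4, against 596 to 616 at day 3, with 1 higher (Kdr) and 1 lower (Etv2) of 4 tested. Kdr had 433 to 603 at day 4, against 203 to 239 at day 3. Etv2 had 146 to 214 at day 4, against 320 to 365 at day 3. Cdh5 and Gata1 did not pass, with changes of -0.78 and 0.26. None of these markers was listed at 0, and their part in the results below was not tested.

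Most zinc fingers of the C2H2 kind are short folds held by a zinc ion, and proteins with many of them in tandem can bind long DNA sequences. In mammals the largest class carries a KRAB box, which recruits the corepressor Trim28 (KAP1). Trim28 in turn brings the histone methyltransferase Setdb1, heterochromatin proteins and the NuRD deacetylase complex, and this machinery silences retroelements and guards imprints in embryonic stem cells. KRAB zinc finger genes lie in clusters that grew by duplication. The Zfp symbol is broader than that class: it also covers developmental regulators without a KRAB box and proteins that act on RNA, ribosomes or ubiquitin.

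Among Zfp genes, rises outnumbered falls between the days, and most genes did not pass. Of the 273 members, 34 were higher and 11 were lower at day 4 than at day 3 and 228 did not pass (limma, adjusted p under 0.05). Over all 12285 genes tested, 11.5% were higher and 10.7% lower, against 12.5% and 4.03% of the members, so the share of rises was near the background and the share of falls was below it. The median log2 change of the members, day 4 minus day 3, was 0.12, against -0.012 over all genes tested, and 165 members (60.4%) had a change above 0, against 48.7% of all genes tested. By array, the median log2 signal of the members relative to each gene's mean was 0.056, 0.045 and 0.085 at day 4. At day 3 it was -0.11, 0.016 and -0.039, so the shift leans on day 3 replicate 1, the lowest array. The middle 50% of members spanned -0.12 to 0.33, and that of all genes -0.27 to 0.25. All 3 day 4 arrays lay above all 3 day 3 arrays in 72 members (26.4%, against 20.7% of all genes tested) and below them in 29 (10.6%, against 20.6%). The difference in these shares between members and other genes was not tested.

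**Figure D1:**
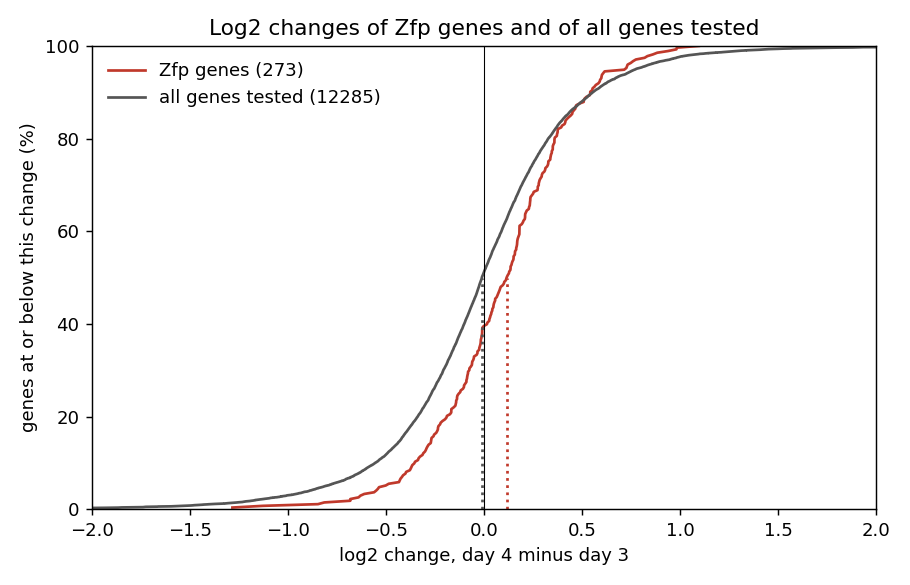
Cumulative share of genes (vertical axis, percent) at or below each log2 change, day 4 minus day 3 (horizontal axis, shown from -2 to 2). The curve of the 273 Zfp genes lies to the right of that of all 12285 genes tested through the middle of the range (quartiles of -0.12 and 0.33, against -0.27 and 0.25), and dotted lines mark the medians of 0.12 and -0.012.

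Called members had a median absolute log2 change of 0.59, against 0.61 over all called genes, but few large rises. Only 1 of the 34 higher members rose at least 2-fold, against 230 of the 1411 higher genes over all genes tested. Of the 11 lower members 2 fell at least 2-fold, against 266 of the 1318 lower genes. The largest log2 rise called was 1.10 among members, against 3.64 over all genes tested. The higher members rose 1.24-fold to 2.14-fold and the lower ones fell 1.23-fold to 2.44-fold. All 45 called members had 3 day 4 signals that did not overlap the 3 day 3 signals. Of all genes tested, called or not, 20.7% lay apart in this way as higher and 20.6% as lower. A small adjusted p with 3 arrays per day favours such genes, so the count of 45 is no separate support for the calls. None of the 45 had a day mean under the level of 13.45.

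The array called day 4 replicate 1 stood apart in the ratio of 3′ to 5′ signal of control probe sets. For Gapdh this ratio was 14.0, against 2.63 and 3.19 for its day 4 companions and 2.43 to 2.64 at day 3. For beta-actin it was 6.71, against 3.22 and 3.84 for its day 4 companions and 2.77 to 3.28 at day 3. Whether RNA quality or amplification underlies these ratios was not tested. Day 4 replicate 1 was the highest day 4 array for 21 of the 34 higher members (61.8%, against 50.3% of all 1411 higher genes) and the lowest for 5 of the 11 lower members (45.5%, against 41.6% of all 1318 lower genes). Without it, 46 members were higher and 15 lower, among them 32 of the 34 and 10 of the 11. These are 16.8% and 5.49% of the members, against 14.2% and 14.5% of all genes tested in that fit. The count also moved with other arrays: 18 were higher without day 3 replicate 3 (6.59%, against 7.05% of all genes tested). Without day 3 replicate 2 or without day 3 replicate 3, 6 were lower (2.2%, against 6.88% and 5.83% of all genes tested). In all 6 fits that left out an array, 16 of the 34 rises and 5 of the 11 falls were called.

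**Figure D2:**
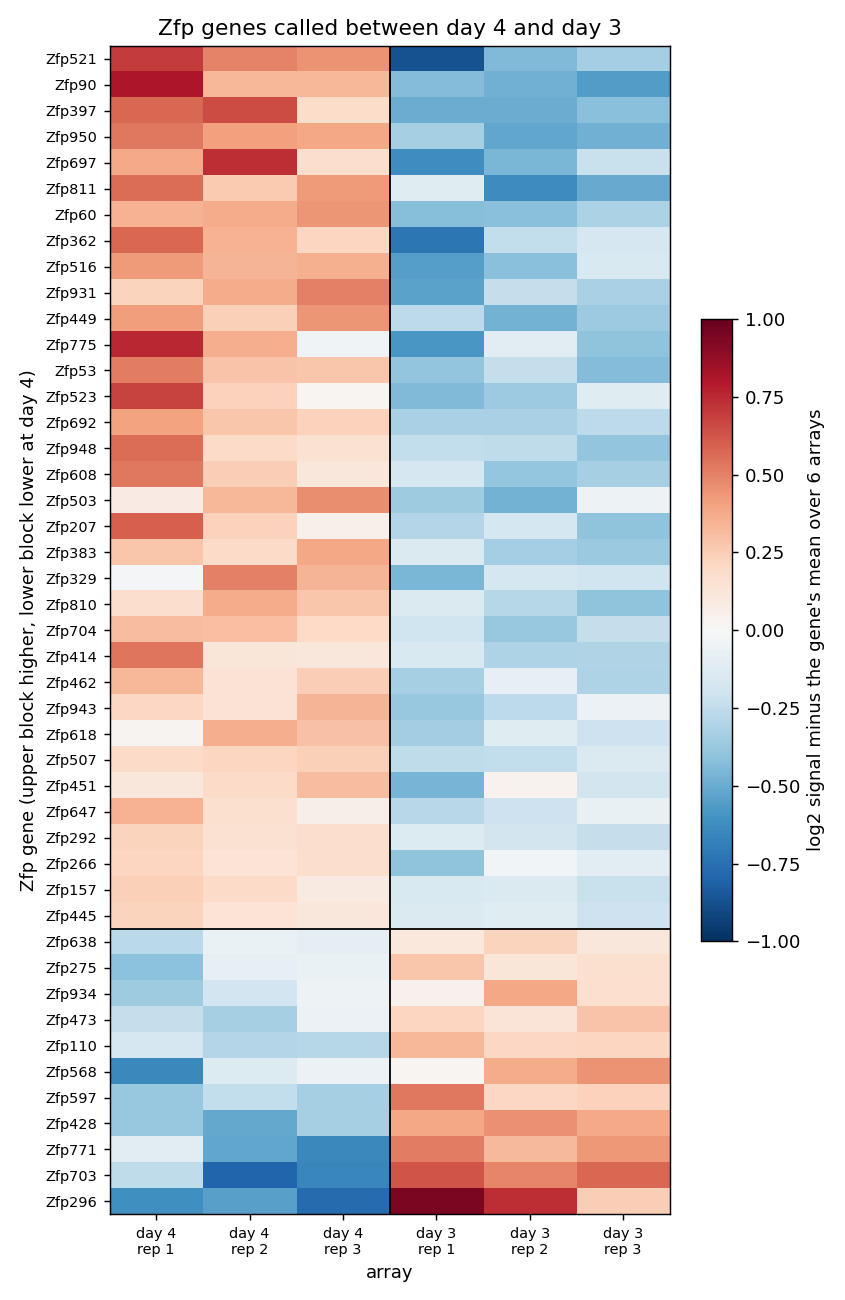
Each row is a called Zfp gene and each column an array, day 4 replicates left and day 3 replicates right, with colour giving log2 signal minus the gene's mean over the 6 arrays. The upper block holds the 34 higher genes and the lower block the 11 lower ones, and Zfp90, Zfp775, Zfp523 and Zfp207 have their highest value on day 4 replicate 1.

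Promoter sequence was read for the members in RefSeq's GRCm38.p6 table, which covered 225 of the 273, in windows of 250 bases before to 50 bases after each transcription start. The stretches below are the 250 bases before the start for 4 called members. Zfp53 and Zfp948 are shown as near neighbours in the same cluster that were both higher at day 4, Zfp692 as the called member with a ZNF143-type element, and Zfp296 as the member with the largest fall. Capitals mark the searched motifs found by exact match on either strand, and each line runs 5′ to 3′ on the strand of the gene.
Zfp53, chr17:21488738-21488987, + strand: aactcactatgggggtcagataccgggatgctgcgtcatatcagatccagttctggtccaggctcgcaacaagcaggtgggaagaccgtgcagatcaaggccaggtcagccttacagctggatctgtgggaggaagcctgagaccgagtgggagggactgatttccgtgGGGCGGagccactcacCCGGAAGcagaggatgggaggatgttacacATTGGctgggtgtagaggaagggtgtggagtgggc
Zfp948, chr17:21566728-21566977, + strand: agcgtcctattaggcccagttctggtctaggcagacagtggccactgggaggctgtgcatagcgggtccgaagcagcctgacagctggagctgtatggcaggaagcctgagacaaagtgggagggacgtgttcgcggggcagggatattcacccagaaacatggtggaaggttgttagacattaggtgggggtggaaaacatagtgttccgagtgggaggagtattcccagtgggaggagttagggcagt
Zfp692, chr11:58306819-58307068, + strand: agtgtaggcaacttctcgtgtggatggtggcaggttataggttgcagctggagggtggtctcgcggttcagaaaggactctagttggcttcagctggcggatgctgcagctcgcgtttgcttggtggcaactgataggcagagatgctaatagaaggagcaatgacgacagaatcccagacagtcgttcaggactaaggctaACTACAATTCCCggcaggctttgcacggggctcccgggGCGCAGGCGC
Zfp296, chr7:19577037-19577286, + strand: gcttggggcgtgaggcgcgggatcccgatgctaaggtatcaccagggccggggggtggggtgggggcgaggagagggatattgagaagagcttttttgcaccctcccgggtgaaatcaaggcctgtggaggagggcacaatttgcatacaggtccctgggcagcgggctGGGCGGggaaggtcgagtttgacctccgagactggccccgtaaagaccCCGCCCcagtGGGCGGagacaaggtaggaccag

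The element bound by ZNF143 and its relative ZNF76 (ACTACAA, any base, then TCCC) was found in 11 of 225 member promoters (4.89%), against 2.6% of 9924 promoters of genes tested and 1.1% of all 27025 genes in the table. Its holders were Zfp1, Zfp58, Zfp93, Zfp128, Zfp180, Zfp219, Zfp358, Zfp454, Zfp606, Zfp691 and Zfp692. Of these only Zfp692 was called, with a change of 0.61 ± 0.11 (log2 scale, SE, as for all changes below). In the Zfp692 stretch this element is the first run of capitals, and the second, at the end, is a match to the NRF1 motif. The relative itself is a member: Zfp523, the mouse ZNF76 gene, is described with the rises below. The Zfp143 gene was not analysed here.

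The other motifs searched gave shares on either side of those of all genes tested. The GC box GGGCGG was found in 52.0% of member promoters, against 69.0% of promoters of genes tested, and the NRF1 motif (GCGC, any 2 bases, GCGC) in 12.4%, against 15.0%. The CCAAT motif was in 50.7% against 43.0%, the ETS motif CCGGAAG in 22.7% against 19.5%, the E-box CACGTG in 8.44% against 11.8%, TATAAA in 8.0% against 8.89%, and a YY1 motif (AAGATGG followed by CGGC) in 1.33% against 1.74%. Median GC content, at the start with the highest value, was 56.3% over member promoters, against 62.0% over those of genes tested. Both strands were searched, bases could count for several motifs, and a gene with several starts counted as a holder if any start had a match. Of the called members, 24 higher and 8 lower ones had a promoter in the table, too few to compare motif shares by direction.

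The largest rise was that of Zfp521, which encodes a many-fingered regulator of blood, bone and neural progenitors. Its signals were 208, 180.0 and 174 on the day 4 arrays, against 70.1, 94.3 and 101 on the day 3 arrays, a log2 change of 1.10 ± 0.16 (adjusted p = 0.00159). All day 4 signals lay above all day 3 signals, and a dimmer probe set of the gene had a change of 0.68 that did not pass (adjusted p = 0.095). Its close relative Zfp423, a partner of Smad proteins in the BMP response, did not pass, with signals of 129, 99.1 and 110.0 at day 4, against 118, 95.3 and 91.7 at day 3 (change 0.15, 95% interval -0.20 to 0.50, adjusted p = 0.533). The groups overlapped for Zfp423, and the difference between the changes of these relatives was not tested.

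Zfp90, a KRAB zinc finger gene, stood at 243, 174 and 174 at day 4, against 102, 99.0 and 93.9 at day 3 (change 0.98 ± 0.15, adjusted p = 0.00202). The day 4 values without replicate 1 were close to each other, and without that array the change was 0.82. Zfp397, which encodes a SCAN zinc finger protein, had 142, 149.8 and 109 at day 4, against 67.5, 67.9 and 71.5 at day 3 (change 0.94 ± 0.15, adjusted p = 0.00274). A second probe set was also called, with a change of 0.99, and another had 0.13 and did not pass. Zfp950 had 121, 111 and 110.0 at day 4, against 58.7 to 66.7 at day 3, with a change of 0.88 ± 0.14 (adjusted p = 0.00196). Averaging its probe sets ended that call (adjusted p = 0.207).

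Zfp697 had 89.5, 115 and 77.9 at day 4, against 44.9, 50.3 and 59.1 at day 3, a rise of 0.86 ± 0.19 (adjusted p = 0.0108). Zfp811 had 141, 114 and 128 at day 4, against 87.9, 61.8 and 67.3 at day 3, a rise of 0.83 ± 0.17 (adjusted p = 0.0072). The spread within a day was wide for both, and narrow for the next gene. Zfp60 had 56.8, 57.6 and 60.8 at day 4, against 33.3, 33.3 and 35.8 at day 3, a rise of 0.77 ± 0.17 (adjusted p = 0.0116). Zfp362 had 379, 323 and 295 at day 4, against 154, 214 and 226 at day 3, a rise of 0.76 ± 0.16 (adjusted p = 0.00955). Zfp931 had 256, 285 and 312 at day 4, against 152, 186 and 176 at day 3, a rise of 0.73 ± 0.13 (adjusted p = 0.00326). For Zfp362 and Zfp931 day 3 replicate 1 was the lowest array. Zfp449, which encodes another SCAN zinc finger protein, had 254, 225 and 258 at day 4, against 159, 137 and 148 at day 3, a rise of 0.73 ± 0.12 (adjusted p = 0.00237). All these genes kept their call in each of the 6 fits without an array.

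Zfp692 had 226, 207 and 199.9 at day 4, against 136, 136 and 142 at day 3, a rise of 0.61 ± 0.11 (adjusted p = 0.00435). Zfp53 had 121, 103 and 102 at day 4, against 64.3, 71.4 and 62.4 at day 3 (change 0.71 ± 0.14, adjusted p = 0.00702), and a dimmer probe set of Zfp53 was called as well, with a change of 1.30. The calls of Zfp775 and Zfp523 depended on which arrays were fitted. Zfp775 had 128, 97.7 and 74.0 at day 4, against 50.7, 70.4 and 57.3 at day 3 (change 0.73 ± 0.22, adjusted p = 0.0404), and Zfp523 had 144, 106 and 91.5 at day 4, against 66.6, 70.1 and 83.2 at day 3 (change 0.61 ± 0.19, adjusted p = 0.0432). Both calls were lost on leaving out any single array but day 4 replicate 3 (adjusted p up to 0.133 and 0.130), and without day 4 replicate 1 the changes were 0.53 and 0.43.

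The other 19 rises of members lay between 0.31 for Zfp445 and 0.60 for Zfp948. Of these, Zfp383, Zfp507 and Zfp704 were the ones called in all 6 fits without an array, and they are named here for that count. Zfp383 had 260, 244 and 281 at day 4, against 194, 169 and 166 at day 3 (change 0.57 ± 0.12, adjusted p = 0.00747). Zfp507 had 473, 479 and 489 at day 4, against 346, 349 and 373 at day 3 (change 0.43 ± 0.09, adjusted p = 0.00838). Zfp704 had 226, 224 and 209 at day 4, against 159, 139.8 and 155 at day 3 (change 0.54 ± 0.11, adjusted p = 0.00792). In each of the 3 the arrays of a day lay close together and well apart from the other day.

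Among the falls, Zfp296 had the largest. It encodes a zinc finger protein of pluripotent cells that aids reprogramming, and its signals were 19.8, 20.7 and 17.7 at day 4, against 58.1, 50.2 and 35.8 at day 3 (change -1.28 ± 0.26, adjusted p = 0.00685). The day 4 signals are close to the level of 13.45, and the call held in each fit without an array. Beside it, the summed signal of 10 pluripotency markers (Pou5f1, Nanog, Sox2, Zfp42, Esrrb, Klf4, Tdgf1, Dppa4, Utf1 and Dppa5a) was 7436 to 7648 at day 4, against 10405 to 10652 at day 3, with 6 of the 10 lower, 0 higher and none listed at 0. Most of the sum was Tdgf1, with 5244 to 5370 at day 4, against 6224 to 6346 at day 3. Tdgf1 had a change of -0.24 and Pou5f1 one of -1.91. Only Klf4 had a change above 0 (0.32), and it did not pass. The part of these markers' cells in the result was not tested, and in sorted bulk samples fewer cells of a type and less RNA per cell cannot be told apart.

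Zfp703, a corepressor of the NET family that works with Groucho proteins, had 278, 192 and 211 at day 4, against 513, 466 and 494 at day 3, a fall of 1.13 ± 0.14 on the log2 scale (adjusted p = 0.00066). Averaged over all its probe sets, the rest of which lie under the level, the change was 0.18 and did not pass (adjusted p = 0.821). Its paralog Zfp503 went the other way, with 103, 123 and 134 at day 4, against 75.9, 69.9 and 93.8 at day 3 (change 0.59 ± 0.16, adjusted p = 0.0292). Zfp503 kept its call in only 2 of the 6 fits without an array, those that left out day 4 replicate 1 or day 3 replicate 3 (in the rest the adjusted p reached 0.108), and it did not pass when its probe sets were averaged (adjusted p = 0.283). This pair of paralogs therefore had calls of opposite sign on their brightest probe sets.

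Zfp771 had 397, 299 and 275 at day 4, against 609.6, 537 and 579 at day 3 (change -0.85 ± 0.14, adjusted p = 0.0027), and another probe set gave -0.85 as well. Zfp428 had 37.8, 34.5 and 39.1 at day 4, against 64.1, 67.7 and 64.0 at day 3 (change -0.82 ± 0.17, adjusted p = 0.00772). Zfp110, which encodes a protein that binds the p75 neurotrophin receptor, had 681, 623 and 626 at day 4, against 963, 884 and 887 at day 3 (change -0.50 ± 0.08, adjusted p = 0.00308). These 3 genes kept their calls in all fits without an array, although Zfp110 lost it when probe sets with suffixes for shared sequence were left out (adjusted p = 0.292).

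Zfp597, whose human counterpart is imprinted, had 62.5, 68.4 and 64.6 at day 4, against 117, 93.8 and 95.2 at day 3 (change -0.64 ± 0.15, adjusted p = 0.0133, and 0.0505 without day 3 replicate 1). A dimmer probe set of Zfp597 had a change of 0.35 and did not pass. Zfp473, which takes part in histone pre-mRNA processing in human cells, had 135, 126 and 153 at day 4, against 184, 174 and 194 at day 3 (change -0.42 ± 0.12, adjusted p = 0.0348), and the call ended on leaving out day 4 replicate 2 or any of the day 3 arrays (adjusted p up to 0.133). The last falls were small. Zfp934 had 264, 294 and 325 at day 4, against 348, 441 and 379 at day 3 (change -0.40 ± 0.12, adjusted p = 0.046). Zfp275 had 305, 384 and 388 at day 4, against 492, 443 and 455 at day 3 (change -0.37 ± 0.12, adjusted p = 0.0477). Zfp934 kept its call only without day 4 replicate 3 or day 3 replicate 1, and Zfp275 only without day 4 replicate 1 (a change of -0.26 there), with adjusted p up to 0.169 and 0.139 otherwise. A second probe set of Zfp934 was called too, with a change of -0.79.

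Among members known to silence imprints or retroelements, 1 was higher, 1 was lower and 4 did not pass, with a median change of -0.14. With 6 tested, 1 gene is 16.7%, beside 11.5% and 10.7% of all genes tested. Zfp445, which guards imprinted regions together with Zfp57, had 2308, 2176 and 2138 at day 4, against 1795, 1823 and 1714 at day 3 (change 0.31 ± 0.07, adjusted p = 0.00959). This was the smallest rise called. It did not pass when day 3 replicate 3 was left out (adjusted p = 0.0572) or when its probe sets were averaged (adjusted p = 0.379). Zfp568, a KRAB gene that represses a placental Igf2 transcript and is needed for gastrulation movements, went the other way. Its signals were 712, 1008 and 1065 at day 4, against 1129, 1435 and 1517 at day 3 (change -0.56 ± 0.16, adjusted p = 0.0336), and another of its probe sets was also called, with -0.59. It did not pass when day 3 replicate 2 or 3 was left out (adjusted p up to 0.133), and without day 4 replicate 1, the lowest array, the change was -0.38 (adjusted p = 0.0259).

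Zfp809, which silences retroviruses through the proline primer binding site, had 305, 304 and 309.8 at day 4, against 284, 293 and 262 at day 3. Its day 4 signals were all higher, yet the change of 0.13 (95% interval -0.09 to 0.36) did not pass (adjusted p = 0.359). Zfp932, Zfp708 and Zfp961 had changes of -0.14, -0.14 and -0.27 with overlapping days (adjusted p = 0.46, 0.767 and 0.416). Zfp57 lay under the level, with signals of 20.8, 2.17 and 1.40 at day 4, against 6.37, 6.37 and 5.93 at day 3, so its level could not be compared. Zfp819 lay under it too, and Zfp69 was not analysed here.

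Of the 15 tested members with roles in pluripotency or development, 4 were higher, 2 were lower and 9 did not pass, with a median change of 0.15. These are 26.7% higher and 13.3% lower, beside 11.5% and 10.7% of all genes tested. The lists of members by role were chosen with earlier results of these data known, and none was tested against all genes. Without day 4 replicate 3, 2 of the 15 were higher. Beside Zfp521 and Zfp503, the higher ones were Zfp516, a driver of the brown fat programme, and Zfp462, which works with the methyltransferases of heterochromatin in embryonic stem cells. Zfp516 had 375, 353 and 358 at day 4, against 190.1, 209 and 252 at day 3 (change 0.75 ± 0.12, adjusted p = 0.00264). Its brightest probe set has a suffix for shared sequence, and with such sets left out it did not pass (adjusted p = 0.174). Zfp462 had 209, 183 and 197 at day 4, against 132, 156 and 133 at day 3 (change 0.48 ± 0.12, adjusted p = 0.0194), and passed in 3 of the 6 fits without an array, those that left out day 4 replicate 1 or 2 or day 3 replicate 2 (in the rest the adjusted p reached 0.0824). Averaged over its probe sets, the change of Zfp462 was 1.17 (adjusted p = 0.0197).

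Zfp281, which helps embryonic stem cells leave the naive state, had 648, 791 and 840.1 at day 4, against 759.7, 967 and 996 at day 3. The days overlapped, and its change of -0.26 (95% interval -0.55 to 0.04) did not pass (adjusted p = 0.197). Zfp148, a GC-box binding factor, and Zfp217, a subunit of corepressor complexes, had changes of 0.29 and 0.30 that did not pass (adjusted p = 0.0645 and 0.115). Zfp217 passed without day 4 replicate 1, and Zfp148 without day 3 replicate 1. For Zfp410, the activator of the NuRD gene Chd4, the change was -0.018 (95% interval -0.22 to 0.18), and Zfp219, Zfp335, Zfp652 and Zfp827 also did not pass (changes of -0.09 to 0.23). Zfp536 lay under the level, with 26.1, 20.4 and 22.2 at day 4, against 7.82, 10.5 and 2.67 at day 3, and did not pass without the filter (adjusted p = 0.0569).

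Of 12 members that act on RNA, ribosomes or protein turnover, 2 were higher, 1 was lower and 9 did not pass, with a median change of -0.11. These are 16.7% higher and 8.33% lower, near the 11.5% and 10.7% of all genes tested. Without day 4 replicate 1, 2 were higher and 3 lower, and without day 3 replicate 3, 0 were called (limma). Zfp207, a spindle protein that loads Bub3, had 2075, 1610 and 1423 at day 4, against 1120, 1213 and 1040 at day 3 (change 0.58 ± 0.13, adjusted p = 0.0115). It did not pass when day 3 replicate 3 was left out (adjusted p = 0.0572), and of its 5 other probe sets 4 went the same way and 1 the other way, none past the threshold. With its sets averaged the change was 0.34 (adjusted p = 0.0896). Zfp451, a SUMO ligase, had 809.9, 853 and 925 at day 4, against 541, 764 and 659 at day 3 (change 0.41 ± 0.13, adjusted p = 0.0438). It passed only without day 4 replicate 1 or day 3 replicate 2 among the fits without an array (adjusted p up to 0.123). Averaging its probe sets ended the call (adjusted p = 0.397), and a dimmer set had a change of -0.27 that did not pass. Zfp638, an RNA and DNA binding protein that silences unintegrated retroviral DNA in human cells, had 601, 693 and 677 at day 4, against 783, 845 and 785 at day 3 (change -0.29 ± 0.09, adjusted p = 0.0437). It passed only without day 4 replicate 1 among the fits without an array (adjusted p up to 0.154). Averaged over its probe sets the change was 0.088 (adjusted p = 0.763), and a dimmer set alone had 1.09 and did not pass (adjusted p = 0.091).

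The ribosome genes of this group did not pass. Zfp622, a factor of large subunit maturation, had 3699, 3442 and 3305 at day 4, against 3971, 3753 and 3749 at day 3 (change -0.14, adjusted p = 0.156, and past the threshold without day 4 replicate 1). Zfp593, which acts in the same pathway, and Zfp598, the ubiquitin ligase that senses collided ribosomes, had changes of -0.19 and -0.025 (adjusted p = 0.305 and 0.93). Zfp36, which encodes the mRNA decay factor tristetraprolin, had 108, 111 and 116 at day 4, against 130.1, 104 and 122 at day 3 (change -0.08, 95% interval -0.38 to 0.22, adjusted p = 0.701). The ubiquitin ligase gene Zfp91 had 982, 659.7 and 669.6 at day 4, against 774, 1207 and 1146 at day 3, with day 4 replicate 1 apart from the other day 4 arrays and day 3 replicate 1 from the other day 3 arrays. Its change of -0.43 did not pass (adjusted p = 0.14), and it passed when either of those arrays was left out. Zfp106, Zfp326, Zfp346 and Zfp830 had changes of -0.23 to 0.08 and did not pass.

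**Figure D3:**
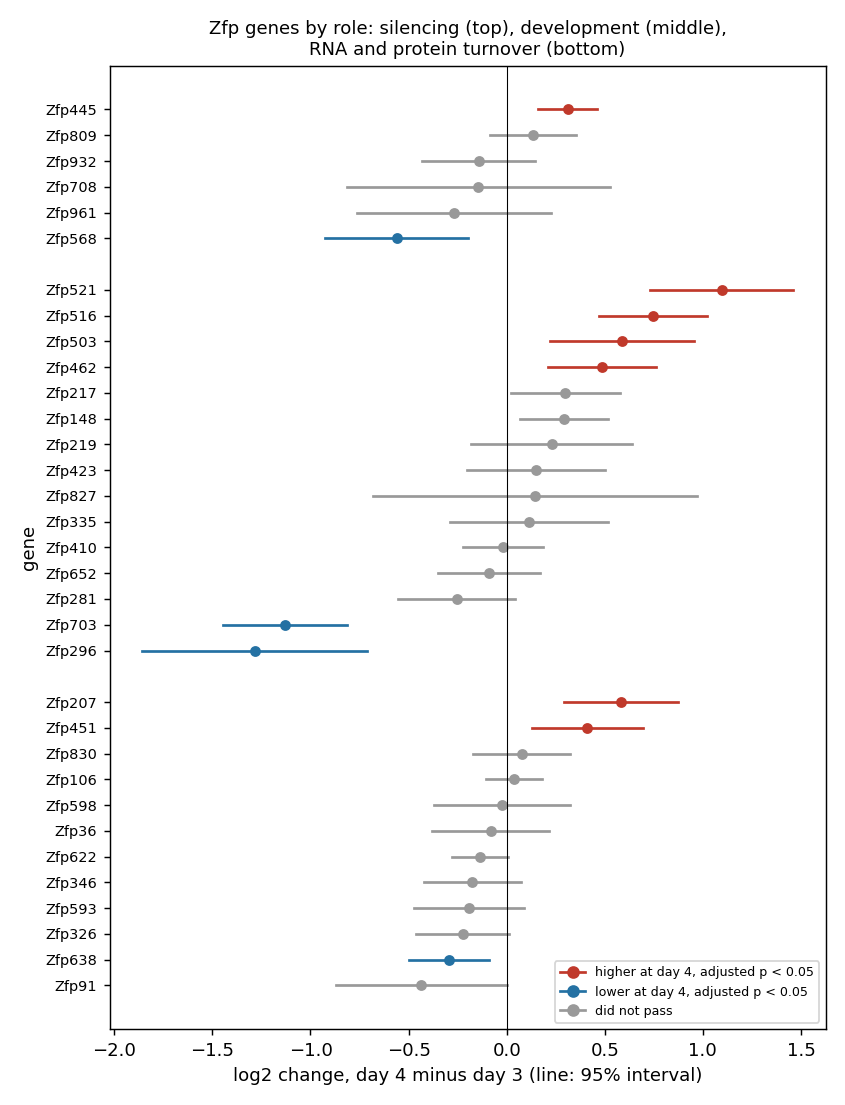
Log2 change, day 4 minus day 3 (horizontal axis), of the tested Zfp genes of each role list (rows), with lines for 95% intervals from the limma fit over all 12285 genes. Called genes are coloured, and Zfp296 and Zfp703 at the low end and Zfp521 at the high end lie farthest from 0.

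Few genes of a list of silencing partners passed. The list holds Trim28, Setdb1, heterochromatin proteins and NuRD genes, and also other silencing genes such as Morc2a and Ehmt1. Of 29 tested partner genes, 2 were higher, 2 were lower and 25 did not pass, with a median change of -0.08, and each direction holds 6.9% of them, against 11.5% and 10.7% of all genes tested. Trim28, the corepressor itself, had 3843, 3793 and 3773 at day 4, against 4269, 4090 and 4020 at day 3, and its change of -0.12 (95% interval -0.24 to 0.005) did not pass (adjusted p = 0.154), although the days did not overlap. Setdb1, which methylates histone H3 at lysine 9, had 655, 565 and 582 at day 4, against 509, 483 and 491 at day 3 (change 0.28, 95% interval 0.07 to 0.49, adjusted p = 0.0605). The days did not overlap for Setdb1 either, in the other direction.

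Atf7ip, which stabilises Setdb1 in the nucleus, had 172, 159 and 147 at day 4, against 106, 102 and 110.4 at day 3 (change 0.58 ± 0.12, adjusted p = 0.00832). It did not pass when its probe sets were averaged (adjusted p = 0.165). Ehmt1, a partner of the methyltransferase G9a, had 1378, 955 and 962 at day 4, against 811, 756 and 766 at day 3 (change 0.48 ± 0.14, adjusted p = 0.0324), and did not pass when any of the day 3 arrays was left out (adjusted p up to 0.105). Its change without day 4 replicate 1 was 0.30. Morc2a, an ATPase that compacts silenced chromatin, had 221, 252 and 249 at day 4, against 417, 449 and 457 at day 3 (change -0.87 ± 0.10, adjusted p = 0.000464). Hdac1, a deacetylase of NuRD, had 1474, 1757 and 1595 at day 4, against 2248, 2125 and 2183 at day 3 (change -0.45 ± 0.08, adjusted p = 0.004). Without day 4 replicate 1, 6 partner genes were higher and 3 lower. Without day 3 replicate 1, 2 or 3, 1 was higher.

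**Figure D4:**
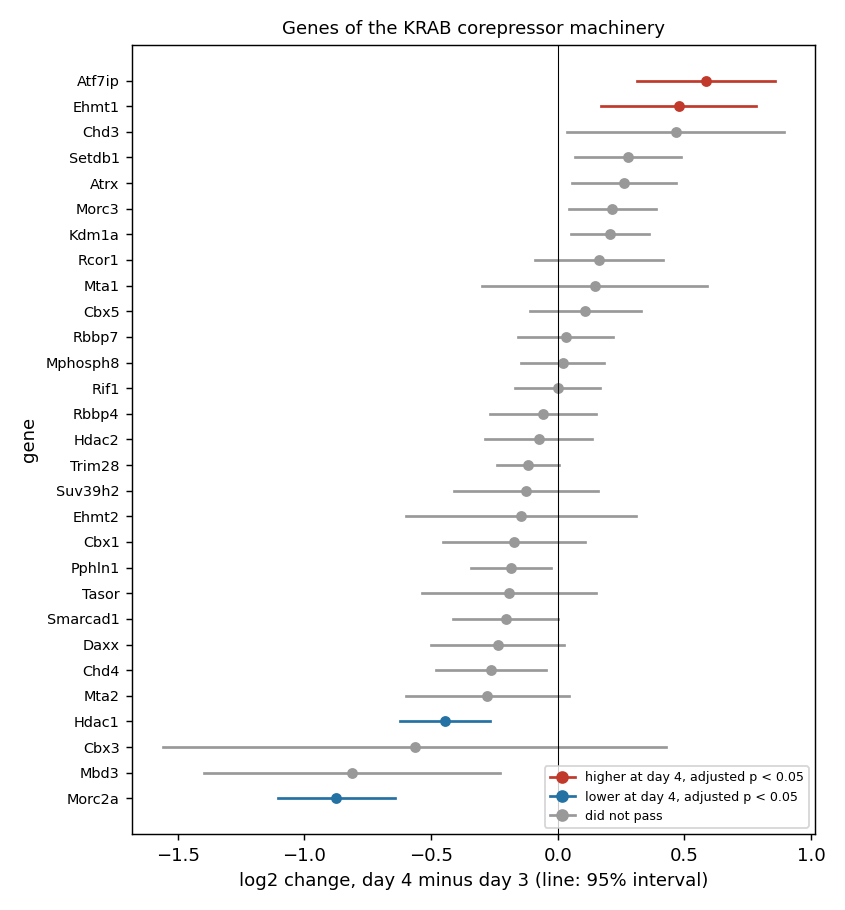
Log2 change, day 4 minus day 3 (horizontal axis), with 95% intervals, for the 29 tested silencing partner genes (rows). Atf7ip and Ehmt1 lie at the high end, Morc2a lies at the low end, and Hdac1 is the other called gene below 0.

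Neighbouring Zfp genes did not all move alike. Of the 272 members placed in the GRCm38.p6 gene table, 141 lay next to another Zfp gene among protein-coding genes and 131 did not. Of the neighbours 13 were higher (9.22%) and 6 lower (4.26%), with a median change of 0.08, and of the others 21 were higher (16.0%) and 5 lower (3.82%), with a median change of 0.15. Of all genes tested, 11.5% were higher and 10.7% lower, and the difference between neighbours and others was not tested. The neighbours fell into 48 runs, of which 3 held 2 or more called members. The longest by members, with 11 of them from Zfp84 to Zfp566, held both Zfp383, which rose by 0.57, and Zfp568, which fell by 0.56, with only Zfp74 between them. Its members ranged from -0.56 to 0.98, with 6 of 11 above 0.

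Other runs leaned one way. In the run of Zfp53, all 7 members (Zfp677, Zfp54, Zfp51, Zfp53, Zfp52, Zfp948 and Zfp983) had changes above 0, from 0.13 to 0.71 with a median of 0.36, and Zfp53 and Zfp948 passed. Zfp948 had 143, 111 and 108 at day 4, against 81.7, 81.2 and 73.6 at day 3 (change 0.60 ± 0.15, adjusted p = 0.0191), and passed in 4 of the 6 fits without an array. Its promoter stretch above holds none of the searched motifs, while that of Zfp53 holds a GC box, an ETS motif and a reversed CCAAT motif. In the run of Zfp943, all 7 members had changes of 0.17 to 0.47, and Zfp943 passed, with 182, 174 and 199 at day 4, against 121, 131 and 151 at day 3 (adjusted p = 0.0278, and called in 2 of the 6 fits without an array). In the run from Zfp398 to Zfp746, all 6 members had changes below 0, from -0.55 to -0.019, and 0 passed in limma (adjusted p of 0.109 and above). Without day 4 replicate 1 the counts above 0 were 7 of 7, 7 of 7 and 1 of 6. These runs were singled out after their values were seen, neighbours in such clusters resemble each other in sequence, and cross-hybridisation between them was not tested.

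**Figure D5:**
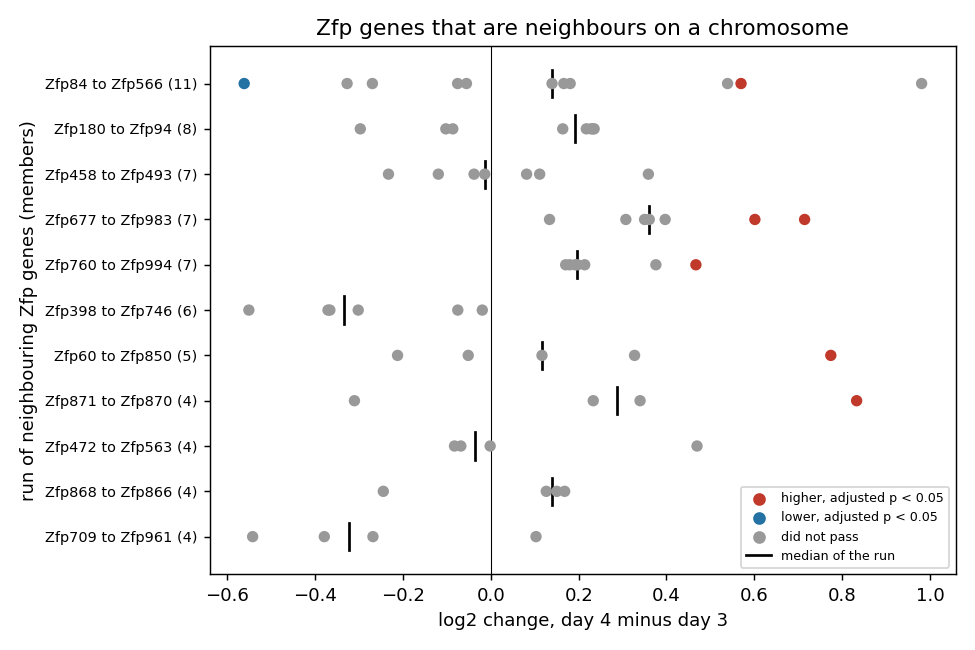
Log2 change, day 4 minus day 3 (horizontal axis), of each member in the 11 runs of neighbouring Zfp genes with at least 4 members (rows, named by first and last member, with the number of members). Black bars are medians; all members of the Zfp677 to Zfp983 and Zfp760 to Zfp994 runs lie right of 0 and all members of the Zfp398 to Zfp746 run lie left of it.

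Probe sets of a gene mostly agreed in direction where more than 1 lay above the level. Of the 45 called members, 24 had such another set, and in 16 of them all the other sets went the same way. In 8 at least 1 other set went the other way, none of them past the threshold (0 called in the opposite direction), and in 10 another set was called in the same direction. Of the 273 members, 36 were represented by a probe set with a suffix for shared or similar sequence (_x_at, _s_at or _a_at), 7 of them called.

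Of the 31 Zfp genes under the level, 2 passed when no filter was applied, both at very low signal. Zfp786 had 14.1, 8.54 and 10.5 at day 4, against 1.2, 0.77 and 0.92 at day 3, and Zfp616 had 0.32, 0.17 and 0.51 at day 4, against 4.72, 8.16 and 7.56 at day 3 (adjusted p = 0.00551 and 0.00435). Detection calls were not used here, so it is not known whether these signals stand above background. Zfp786 lies at the end of the run from Zfp398 to Zfp746, whose 6 members had changes below 0.

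Other zinc finger symbols were counted in the same way. Of 39 tested Zbtb genes, whose proteins pair zinc fingers with a BTB domain, 3 were higher (7.69%) and 1 lower (2.56%), with a median change of 0.12. Of 19 tested Zscan and Zkscan genes, which carry SCAN domains as Zfp397 and Zfp449 do, 5 were higher (26.3%) and 1 lower (5.26%), with a median change of 0.26, and these counts were 1 to 7 and 0 to 1 in the fits without an array, lowest without day 4 replicate 2 for the rises. Of all genes tested, 11.5% were higher and 10.7% lower, and none of these lists was tested against another.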

How the data were processed

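RNA of 6 samples was amplified in 2 cycles and hybridised to 1 Affymetrix array each, per the labels' protocols. The deposited values are linear MAS5 signal intensity values, per the submitters' processing notes, with a scaling target not given in the sources used here. RNA was extracted with Trizol or an RNeasy kit, and the labels do not say which sample had which. Precision is limited by the 3 arrays per day. Each p-value sets the difference between days against the spread between arrays, moderated over all genes tested. All samples come from a single reporter line, so the p-values do not cover variation between lines.

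Of 45101 probe sets, 34958 had 1 gene symbol, 932 several and 9211 were not listed. The brightest probe set by mean log2 value stood for each gene. The 12285 genes above the 40th percentile of probe sets were fitted on log2 of the deposited signal with limma 3.58.1 in R 4.3.3 (lmFit, eBayes with trend, day as the only term, 2-sided, Benjamini-Hochberg over all genes tested, threshold 0.05). The fit was tested on simulated data.

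Named genes were the 15 largest rises and up to 15 largest falls among called members with non-overlapping days and a brighter day above the median probe set, all members of 3 role lists, up to 8 called partner genes with Trim28 and Setdb1, and the genes beside the level. The members and lists were chosen with earlier results of these data known. A planned split of members by KRAB box was not run, since protein sequences were not used here. Same-numbered replicates correlated by -0.00051 to 0.067 in their deviations from the day means and were not treated as pairs. The alternatives were quantile normalization, an offset of 4.14, no filter, a 60th percentile filter, the mean over probe sets, no suffixed probe sets, no trend, array weights, a replicate block, suffixed symbols and leaving out each array.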

Additional observations from a re-analysis of the deposited data

How the results depend on the processing

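The median change of the members stayed above 0 under every alternative run, from 0.055 without day 3 replicate 1 to 0.14 without day 3 replicate 2. The counts of members moved more: with the mean over probe sets 21 were higher and 6 lower, with array weights 57 and 18, and without the variance trend 26 and 7. In the same order, the members' shares were 8.3% and 2.37%, 20.9% and 6.59%, and 9.52% and 2.56%. Those of all genes tested moved too, with 7.76% and 8.35%, 17.6% and 17.5%, and 8.89% and 7.87%. Leaving out 1 array gave 18 to 46 higher and 6 to 15 lower members. Over all genes tested these fits gave 7.05% to 14.2% higher and 5.83% to 14.5% lower. With all alternatives fitted to the members, the share of members called lower, 2.20% to 6.59%, was under the share of all genes called lower in the same fit, while the share called higher was under that of all genes without day 4 replicate 2, day 3 replicate 1 or day 3 replicate 3. The protein class split was not run. With a replicate block, which the labels share only by number, 39 members were higher and 11 lower (33 of the 34 and 10 of the 11), and Zfp275 and Zfp523 lost their calls. For the partner genes, 5 were higher with quantile normalization, 1 with the mean over probe sets, 1 without the trend and 6 with array weights, where 6 were lower. Leaving out 1 array gave 1 to 6 higher and 2 to 3 lower partner genes. Of the 31 called members named by the rule, 14 kept their call and direction under every alternative that could be fitted to them (13 to 15 per gene). Of the called genes named by the rule, those lost without the trend were Zfp775, Zfp523, Zfp568, Zfp934, Zfp275, Zfp638, Zfp445, Zfp503, Zfp207, Zfp451 and Ehmt1. With no filter Zfp775, Zfp523, Zfp568, Zfp934, Zfp275, Zfp503 and Zfp451 were lost, and with quantile normalization Zfp775, Zfp523, Zfp275 and Zfp638. Zfp775 and Zfp275 were also lost with the mean over probe sets, and Zfp638 without suffixed ones. Direction changed with the mean over probe sets for Zfp703 (0.18), Zfp638 (0.088), Zfp410 (0.31), Zfp106 (-0.38) and Setdb1 (-0.013). It changed with array weights for Zfp827 (-0.19), Zfp335 (-0.041) and Zfp410 (0.055), for Zfp410 with quantile normalization (0.017) and for Zfp410 without suffixed probe sets (0.087). Without 1 array the changes spanned -0.32 to 0.085 for Zfp708, -0.46 to 0.0088 for Zfp961, -0.26 to 0.42 for Zfp827, -0.014 to 0.24 for Zfp335, -0.081 to 0.023 for Zfp410 and -0.20 to 0.10 for Zfp598. The cause of these changes was not tested. The fits without 1 array have 2 arrays on 1 day. MAS5 signals near the level scatter widely, so changes of dim members are imprecise.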

Other observations

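Zfp symbols that carry a letter after the number were not members. With them added, 36 genes were higher and 12 lower. The clearest was Zfp36l1, an mRNA decay factor related to tristetraprolin, with signals of 1411, 1467 and 1526 at day 4, against 806, 793 and 884 at day 3 (change 0.83 ± 0.08, limma adjusted p = 0.000167). Every day 4 array was above every day 3 array. Its relative Zfp36l2 had 1126, 1135 and 1155 at day 4, against 966, 1073 and 1041 at day 3 and did not pass (change 0.15 ± 0.08, adjusted p = 0.189). Zfp354c, a KRAB gene, had 476, 431 and 446 at day 4, against 309, 310.4 and 341 at day 3 (change 0.50 ± 0.10, adjusted p = 0.00632), and Zfp729b had 158, 147 and 156 at day 4, against 183, 244 and 221 at day 3 (change -0.48 ± 0.13, adjusted p = 0.0269). These genes were named after their values were seen.

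Zfp42, the pluripotency gene also called Rex1, was left out of the members by the rule. Its signals were 308, 347 and 333 at day 4, against 375, 435 and 362 at day 3, and its change of -0.24 ± 0.11 did not pass (adjusted p = 0.14), although the days did not overlap.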
